A study of Mus musculus with 6 samples.

Results

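Mitochondrial RNA polymerase and the proteins that start, extend, terminate, tail, stabilise and degrade its transcripts are encoded by nuclear genes, and 10 of these genes were followed here in C2C12 mouse myoblasts, beside the mitochondrial messages that their products handle. The 10 genes were taken by name: Polrmt, Tfam, Tfb2m, Tefm, Mterf3, Lrpprc, Slirp, Mtpap, Pnpt1 and Supv3l1. All 10 were found among the 32815 gene rows of the table, and all 10 passed the filter on low values.

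C2C12 is an immortalised line of mouse myoblasts, the precursor cells of muscle fibres, labelled here as wild-type. The MS group is 3 libraries of C2C12 cells after cyclic mechanical stretch for 8 h at 1 Hz in a loading system that flexes the plate by 4-point bending, with a plate displacement of 4 mm. The control group is 3 libraries of C2C12 cells labelled Control, with no further description. All 6 libraries carry 1 batch label, and the labels do not say whether replicates were separate cultures, so p-values reflect library-to-library spread, part or all of which may be technical. The study is titled as one of NAD+ deficiency, contacts of mitochondria with the endoplasmic reticulum and stress urinary incontinence.

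Mammalian mitochondrial DNA is a small circle whose strands, called heavy and light, are transcribed almost from end to end as long precursors. The polymerase Polrmt cannot start alone: Tfam bends and coats the DNA at the promoter, and Tfb2m helps to melt it. Tefm then keeps the polymerase moving. The precursors are cut at the transfer RNAs that lie between the genes, and the freed messages are tailed by the poly(A) polymerase Mtpap, held stable by the complex of Lrpprc and Slirp, and degraded by the complex of the exoribonuclease Pnpt1 and the helicase Supv3l1. Muscle depends on these messages because each encodes a subunit of the respiratory chain or of ATP synthase.

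Of the 10 genes, 6 rose in MS and 0 fell, all by less than 2-fold, whereas the 13 mitochondrial messages all fell in MS to between 11% and 18.2% of their control mean. Lrpprc, which stabilises messages, rose most, followed by the initiation factor Tfb2m and the elongation factor Tefm. Tfam, the poly(A) polymerase gene Mtpap and Polrmt rose less, and Mterf3, Supv3l1, Slirp and Pnpt1 did not pass the test. The test was limma on log2(FPKM + 1), where FPKM is fragments counted per length of transcript and per size of library, with Benjamini-Hochberg adjustment over all 12028 genes that averaged at least 1 FPKM, and a gene was called at an adjusted p under 0.05. Fold changes on this scale understate the change of low genes. The whole transcriptome differed between the groups: 53.8% of tested genes were called, 30.6% higher and 23.2% lower in MS. The 6 of 10 members called therefore stand beside a background in which most genes were called. In bulk libraries such as these, a change in RNA per cell and a change in how many cells of a kind are present cannot be told apart. The median log2 difference was 0.23 over the 10 members and 0.05 over all tested genes.

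**Figure D1:**
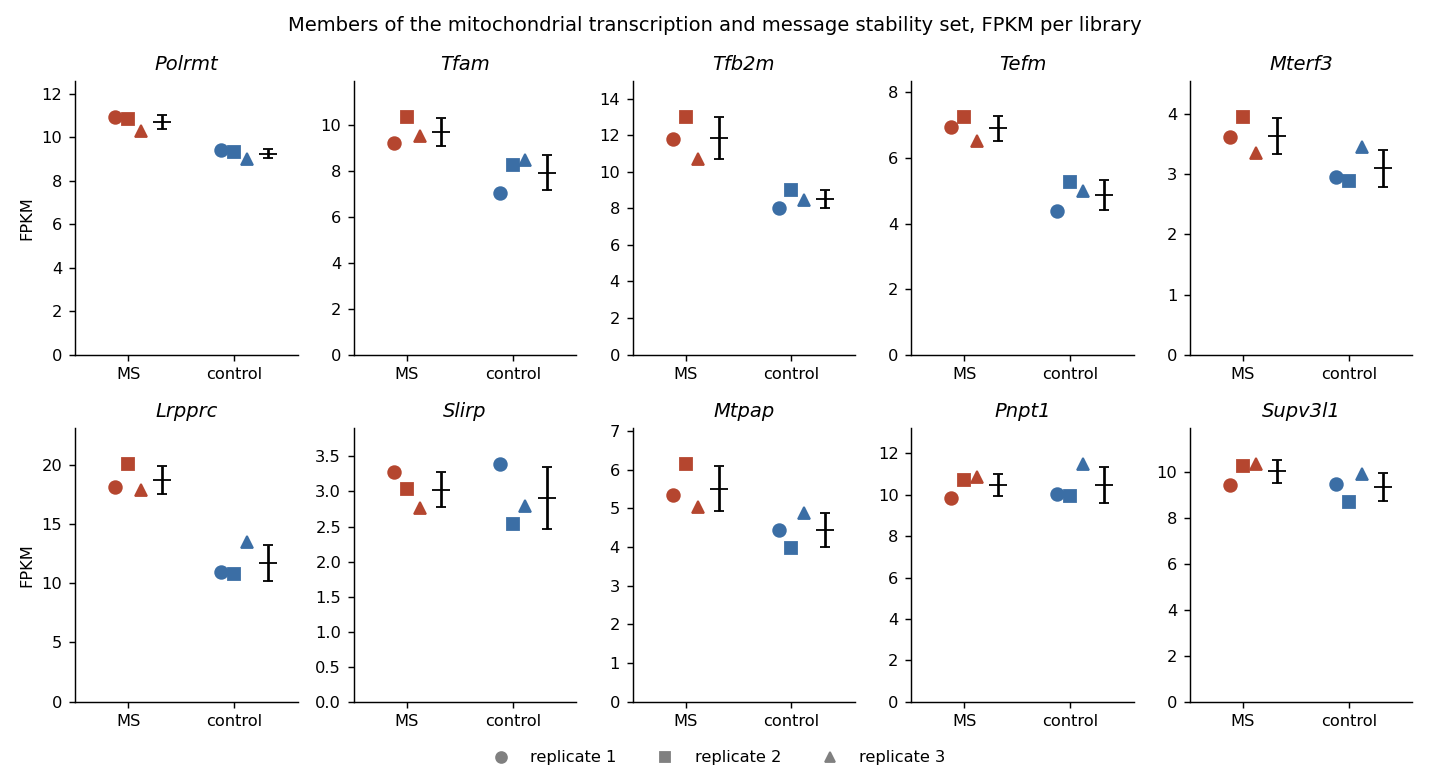
FPKM of each member in each library (y axis, from 0), with the MS libraries on the left in red and the control libraries on the right in blue. Circles, squares and triangles are replicates 1, 2 and 3, and the black bars are the group mean with its SD (n = 3). In the 6 called genes every MS point lies above every control point, with the widest gap in Lrpprc (17.9 to 20.1 FPKM against 10.8 to 13.5 FPKM), while the groups overlap in Mterf3, Slirp, Pnpt1 and Supv3l1.

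The libraries differed in ways that the labels do not explain. Summed FPKM was 298991 to 304570 in MS and 323607 to 329968 in control, and the read depth is unknown. The relative normalizing totals of the libraries, read from the steps of low FPKM values, were estimated at 0.962 to 1.009 of that of control 1. The search covered only small offsets from control 1, so larger ones could not have been found, and each estimate rests on 39 to 61 genes. Myoblast markers gave summed FPKM of 69.2 to 84.0 in MS and 79.5 to 93.3 in control, with 6 of 8 reaching 1 FPKM. Of the defining ones, Myod1 and Des were above 0 in every library, and Pax7 stayed at or near 0. Des, the largest part of each sum, overlapped between the groups. Every MS library was below every control library for Myod1 (0.8227 FPKM in MS 1), Myf5, Cdh15, Itga7 and Myog. Itga7 had 13.45 to 16.46 FPKM in MS and 19.25 to 22.93 FPKM in control. Chrna1 went the other way, at 5.342 to 5.85 FPKM in MS and 3.753 to 4.253 FPKM in control. Kidney markers, which myoblasts should lack, summed to 97.0 to 107 FPKM in MS and to 0.904, 1.16 and 97.3 FPKM in control 1, 2 and 3. Markers of tongue and salivary gland summed to 191, 35.3 and 28.6 FPKM in MS 1, 2 and 3, and to 11.5, 11.9 and 140 FPKM in control 1, 2 and 3. Lens markers summed to 287, 639 and 736 FPKM in MS and to 881, 748 and 234 FPKM in control, in the same order. The macrophage list summed to 25.0 to 30.0 FPKM in MS and 3.75 to 5.22 FPKM in control, nearly all of it Cd68, with Adgre1 at 0 in all 6 libraries. Endothelial markers summed to at most 1.65 FPKM and fat markers to at most 0.23 FPKM in any library. Control 3 thus stood apart from the other controls on the kidney, tongue and lens lists, and MS 1 from the other MS libraries on the tongue and lens lists. Each member is given below also without these libraries. What remains still differs on the kidney list, at 97.0 and 99.9 FPKM in MS 2 and 3 against 0.904 and 1.16 FPKM in control 1 and 2. Leaving out MS 1 and control 3 therefore cannot separate the kidney signal from MS. Control 3, at 97.3 FPKM, is the only control near the MS level, so a comparison alike on this list rests on 1 control library. MS 1 minus control 3 had a median log2 difference of 0.14 over the members and -2.34 over the mitochondrial messages, beside 0.08 over all tested genes. The part of these lists in the results was not tested.

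Polrmt, the single-subunit RNA polymerase of mitochondria (ENSMUSG00000020329, chromosome 10, 79571957 to 79582415, minus strand, mm39), had 10.9, 10.8 and 10.3 FPKM in MS 1, 2 and 3, against 9.42, 9.29 and 9.003 FPKM in control 1, 2 and 3. The MS values were all above the control values, and the spread within each group was small. Its mean was 10.7 ± 0.340 FPKM in MS and 9.24 ± 0.213 FPKM in control (SD, n = 3 each), a log2 difference of 0.19 (SE 0.05, 95% interval 0.08 to 0.31, adjusted p = 0.0136). This is the smallest difference among the 6 called genes. Without MS 1 and control 3 it was 0.16 and no longer passed (adjusted p = 0.0796).

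Tfam, the DNA-bending protein that packs mitochondrial DNA and binds its promoters (ENSMUSG00000003923, chromosome 10, 71061294 to 71074110, minus strand), had 9.23, 10.4 and 9.54 FPKM in MS, against 7.06, 8.29 and 8.49 FPKM in control. The groups did not overlap, with the lowest MS library 0.74 FPKM above the highest control library. The log2 difference was 0.26 (SE 0.08, 95% interval 0.08 to 0.45, adjusted p = 0.0252). It passed without MS 1 and control 3 (0.34, adjusted p = 0.0248). It did not pass without MS 2 (0.22, adjusted p = 0.0816), without MS 3 (0.27, adjusted p = 0.0602) or without control 1 (0.19, adjusted p = 0.0613).

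Tfb2m, the factor that melts the promoter with Polrmt (ENSMUSG00000026492, chromosome 1, 179355620 to 179373832, minus strand), had 11.8, 13.01 and 10.7 FPKM in MS, against 8.01, 8.99 and 8.44 FPKM in control. All MS libraries were above all control libraries, with an SD of 1.16 FPKM in MS and 0.493 FPKM in control. The log2 difference was 0.43 (SE 0.08, 95% interval 0.25 to 0.62, adjusted p = 0.00297), a 1.35-fold increase on this scale, and it was 0.43 without MS 1 and control 3 (adjusted p = 0.0182). Its paralog Tfb1m, an rRNA methyltransferase of the mitochondrial ribosome, is given with the other factors below.

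Tefm, the elongation factor of the mitochondrial polymerase (ENSMUSG00000046909, chromosome 11, 80027504 to 80033001, minus strand), had 6.94, 7.26 and 6.51 FPKM in MS, against 4.37, 5.26 and 4.99 FPKM in control. The groups were well apart, and control 1 was the lowest library. The log2 difference was 0.43 (SE 0.07, 95% interval 0.25 to 0.60, adjusted p = 0.00258), and it was 0.44 without MS 1 and control 3 (adjusted p = 0.0148). Mterf3, a member of the termination factor family that represses mitochondrial transcription in mice (ENSMUSG00000021519, chromosome 13, 67055032 to 67081152, minus strand), had 3.62, 3.96 and 3.36 FPKM in MS, against 2.95, 2.90 and 3.46 FPKM in control. Here MS 3 lay below control 3. The log2 difference was 0.18 with a 95% interval of -0.01 to 0.37 (adjusted p = 0.104), and it passed without control 3 (0.24, adjusted p = 0.0412) but not without both MS 1 and control 3 (0.24, adjusted p = 0.075). The rows of Mterf3 and Ptdss1, a gene on the other strand at 14.0 to 14.5 FPKM in MS and 12.6 to 13.7 FPKM in control, share 259 bases, and the sources used here do not say whether counting used strand.

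Because 5 of the 6 genes that rose have a start-site sequence in the RefSeq table (GRCm38.p6) used here, the 150 bases before each start are shown, 5′ to 3′ on the gene's strand. Capitals mark ETS-type motifs (CCGGAAG or its reverse complement CTTCCGG), the kind bound by GABP, a regulator of genes for mitochondrial proteins. The windows are chr17:84790787-84790936 for Lrpprc, chr1:179546277-179546426 for Tfb2m, chr11:80142154-80142303 for Tefm, chr10:71238045-71238194 for Tfam and chr10:79746582-79746731 for Polrmt, all on the minus strand.
Lrpprc: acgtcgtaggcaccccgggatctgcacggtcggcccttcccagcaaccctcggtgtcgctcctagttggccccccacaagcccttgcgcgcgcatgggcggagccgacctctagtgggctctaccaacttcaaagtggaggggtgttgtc
Tfb2m: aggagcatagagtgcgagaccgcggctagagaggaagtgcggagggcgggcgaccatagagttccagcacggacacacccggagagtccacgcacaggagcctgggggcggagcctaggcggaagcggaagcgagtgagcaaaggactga
Tefm: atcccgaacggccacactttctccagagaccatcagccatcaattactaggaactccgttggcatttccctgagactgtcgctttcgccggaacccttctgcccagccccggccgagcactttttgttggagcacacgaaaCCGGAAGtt
Tfam: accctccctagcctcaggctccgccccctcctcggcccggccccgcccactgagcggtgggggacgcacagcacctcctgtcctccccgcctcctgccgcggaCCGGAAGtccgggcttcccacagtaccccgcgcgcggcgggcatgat
Polrmt: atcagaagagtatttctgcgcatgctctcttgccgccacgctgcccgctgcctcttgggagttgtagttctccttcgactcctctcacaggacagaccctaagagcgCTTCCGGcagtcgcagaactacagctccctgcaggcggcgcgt
The ETS-type motif starts 9 bases before the start in Tefm, 47 before it in Tfam and 43 before it in Polrmt. Lrpprc, the gene that rose most, holds none of the 7 motifs searched for, on either strand, from 250 bases before to 50 bases after its start.

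Over that whole window of 300 bases, the ETS-type motif was in 4 of the 8 members with a sequence (Tefm, Tfam, Polrmt and Slirp) and in 8.86% of all 32851 promoter windows. Slirp, whose transcript did not pass the test, held 3 copies of it and 1 YY1 motif (AAGATGG), which is in 6.34% of windows. The NRF1 motif (GCGCNTGCG, for another regulator of mitochondrial genes) was in Tfb2m and Polrmt, and in 6.31% of all windows. It starts at base 13 of the transcribed part in Tfb2m, and in Polrmt 2 overlapping matches start 6 bases before the start and at base 1, so none lies whole in the stretches shown. A CRE (TGACGTCA, 1.79% of windows), an ATF4 motif (TGATGNAA, 3.97%), a heat shock element (GAANNTTC, 7.86%) and an E-box (CACGTG, 7.15%) were in none of the 8 windows. These matches describe letters in a window and say nothing of binding.

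Lrpprc, which with Slirp coats mitochondrial messages and keeps them stable and tailed (ENSMUSG00000024120, chromosome 17, 85012675 to 85097990, minus strand), had 18.2, 20.1 and 17.9 FPKM in MS, against 10.95, 10.8 and 13.5 FPKM in control. Control 3 was the highest of the controls and still 4.39 FPKM below the lowest MS library. Lrpprc averaged 18.7 ± 1.201 FPKM in MS and 11.7 ± 1.51 FPKM in control (SD, n = 3 each), a log2 difference of 0.63 (SE 0.09, 95% interval 0.42 to 0.85, adjusted p = 0.00109). Without MS 1 and control 3 the difference was 0.75 (adjusted p = 0.000635). It was the member with the highest level in both groups, clear of the next gene in MS and overlapping Pnpt1 in control.

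Slirp, the small RNA-binding partner of Lrpprc (ENSMUSG00000021040, chromosome 12, 87490666 to 87498976, plus strand), had 3.27, 3.04 and 2.77 FPKM in MS, against 3.39, 2.53 and 2.79 FPKM in control. Both the highest and the lowest value belonged to control libraries. The log2 difference was 0.05 (95% interval -0.18 to 0.28, adjusted p = 0.709), an interval that on this scale runs from 0.881-fold to 1.21-fold. Without MS 1 and control 3 the difference was -0.01 (adjusted p = 0.933). Slirp shares 3132 bases with Snw1, a splicing factor gene on the other strand at 21.3 to 23.9 FPKM in MS and 21.0 to 26.5 FPKM in control, and 23 bases with Alkbh1, so its level may hold reads of either.

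The ratio of Slirp to Lrpprc, both per length, was 0.180, 0.151 and 0.155 in MS 1, 2 and 3, against 0.310, 0.235 and 0.207 in control 1, 2 and 3. Every MS ratio was below every control ratio. The mean ratio was 0.162 ± 0.0158 in MS and 0.2505 ± 0.0533 in control (SD, n = 3 each; exact permutation test, two-sided, p = 0.1, the smallest that 3 against 3 allows). The difference between the groups, -0.09 in mean ratio, came with a higher Lrpprc and a Slirp level that did not pass the test.

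Mtpap, the polymerase that adds the poly(A) tails of mitochondrial messages (ENSMUSG00000024234, chromosome 18, 4375592 to 4397330, plus strand), had 5.35, 6.16 and 5.03 FPKM in MS, against 4.45, 3.99 and 4.89 FPKM in control. The groups did not overlap, but MS 3 and control 3 were only 0.14 FPKM apart. The log2 difference was 0.26 (SE 0.09, 95% interval 0.05 to 0.47, adjusted p = 0.0434). It passed without MS 1 and control 3 together (0.33, adjusted p = 0.0442), and it did not pass without MS 1 (0.28, adjusted p = 0.0754), MS 2 (0.19, adjusted p = 0.129), control 1 (0.26, adjusted p = 0.0932) or control 2 (0.20, adjusted p = 0.134).

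Neither gene of the degrading complex passed the test. Pnpt1, which encodes polynucleotide phosphorylase (ENSMUSG00000020464, chromosome 11, 29080744 to 29111680, plus strand), had 9.85, 10.7 and 10.9 FPKM in MS, against 10.02, 9.95 and 11.5 FPKM in control. Its groups overlapped fully, with a log2 difference of -0.00 (95% interval -0.17 to 0.16, adjusted p = 0.991). Supv3l1, the helicase that unwinds RNA for it (ENSMUSG00000020079, chromosome 10, 62264988 to 62285517, minus strand), had 9.47, 10.3 and 10.4 FPKM in MS, against 9.48, 8.72 and 9.92 FPKM in control. MS 1 lay below control 1 and control 3, and the log2 difference was 0.09 (95% interval -0.06 to 0.24, adjusted p = 0.263). Without MS 1 and control 3 the differences were 0.10 for Pnpt1 (adjusted p = 0.205) and 0.17 for Supv3l1 (adjusted p = 0.0857). On this scale the intervals run from 0.892-fold to 1.12-fold for Pnpt1 and from 0.960-fold to 1.18-fold for Supv3l1, by the spread between these libraries.

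Set in order of level, the members of the MS group began with Lrpprc at a mean of 18.7 FPKM, followed by Tfb2m (11.8), Polrmt (10.7), Pnpt1 (10.5), Supv3l1 (10.05) and Tfam (9.72), each overlapping its neighbour from Tfb2m on. Tefm (6.90), Mtpap (5.51), Mterf3 (3.64) and Slirp (3.03) followed, each separate from the next. In the control group the order was Lrpprc (11.7), Pnpt1 (10.5), Supv3l1 (9.38), Polrmt (9.24), Tfb2m (8.48), Tfam (7.94), Tefm (4.87), Mtpap (4.44), Mterf3 (3.10) and Slirp (2.91). There Lrpprc overlapped Pnpt1, Supv3l1 overlapped Polrmt, Tfb2m overlapped Tfam, Tefm overlapped Mtpap, and Mterf3 overlapped Slirp. Tfb2m thus held rank 2 in MS and rank 5 in control. The lowest MS level of Tfb2m, 10.7 FPKM, and the highest MS level of Pnpt1, 10.9 FPKM, overlap, whereas in control the highest Tfb2m level, 8.99 FPKM, was below the lowest Pnpt1 level, 9.95 FPKM. Summed over the 10 members, levels were 88.6, 95.7 and 87.3 FPKM in MS, against 70.1, 70.7 and 77.0 FPKM in control.

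The count of 6 depended on how the libraries were scaled and modelled. Every MS library was above every control library in 6 of the 10 members, the 6 that were called, and in 35.9% of all tested genes. The call and this separation come from the same values. With FPKM rescaled to the nuclear total outside the pseudogene copies of mitochondrial genes, 3 members were called, Lrpprc (0.56), Tfb2m (0.36) and Tefm (0.36), beside 23.3% of all genes called higher. That scaling divided the calls over all genes into 2808 higher and 3373 lower, against 3683 higher and 2787 lower as deposited. Rescaling each library by its median ratio to the geometric gene means left 4 members called, Polrmt, Tfb2m, Tefm and Lrpprc. Its calls over all genes were 3094 higher and 3182 lower. A model with 3 library sets (MS 2 with MS 3, MS 1 with control 3, and control 1 with control 2) compares MS 1 with control 3 alone, and called 1 member, Lrpprc (0.40, adjusted p = 0.0363), beside 15.3% of all genes called higher. In it MS 1 and control 3 are 1 library each and the spread comes from the other sets, so its calls are no replicated check. Tfb2m was at 0.44, Tefm at 0.41, Polrmt at 0.25, and Tfam and Mtpap at 0.11 each.

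**Figure D2:**
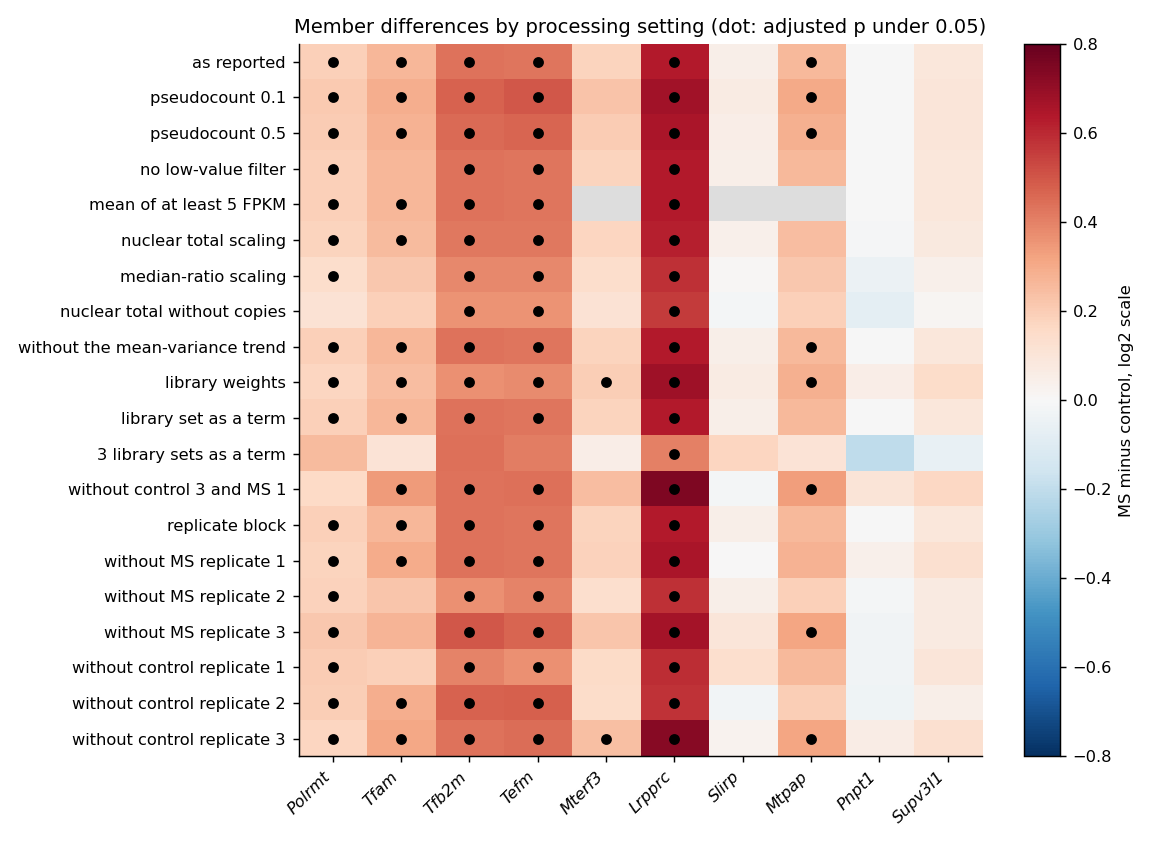
Log2 difference of MS minus control for each member (columns) under each way of processing (rows), as colour on a scale from -0.8 (blue) to 0.8 (red), with a dot where the adjusted p was under 0.05 and grey where a gene was below the filter. Lrpprc has a dot in every row, Tfb2m and Tefm in every row but that of the 3 library sets, and Slirp, Pnpt1 and Supv3l1 in none.

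The messages themselves were all lower in MS. Cytochrome b, mt-Cytb, had 774, 469 and 545 FPKM in MS, against 4434, 4597 and 4493 FPKM in control. MS 1 was the highest of the MS libraries, also for mt-Co1, the catalytic subunit of cytochrome oxidase, which had 2129, 1328 and 1441 FPKM in MS, against 8820, 9305 and 10458 FPKM in control. For mt-Nd1, the first message of the heavy-strand transcript, values were 693, 367 and 443 FPKM in MS, against 2931, 3136 and 3416 FPKM in control. The log2 differences were -2.95 for mt-Cytb (SE 0.17), -2.57 for mt-Co1 (SE 0.17) and -2.70 for mt-Nd1 (SE 0.21), with adjusted p from 2.3e-05 to 8.01e-05.

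Messages of both strands were lower, though the sources used here do not say whether counting used strand, which bears on mt-Nd6. The one message transcribed from the other strand, mt-Nd6, a subunit of complex I, had 232, 123 and 143 FPKM in MS, against 829, 909 and 1001 FPKM in control (log2 difference -2.50, SE 0.22, adjusted p = 0.000116). The highest MS library was 598 FPKM below the lowest control library. Transfer RNA rows on the strand of mt-Nd6 ran from 20.2% of the control mean for mt-Ts1 to 139.5% for mt-Ty. Over the 13 messages the median log2 difference was -2.74, between -3.15 for mt-Nd3 and -2.49 for mt-Nd2. It was -2.92 without MS 1 and control 3, with all 13 called lower, and -2.34 for MS 1 against control 3 alone. Together they took 2.82%, 1.64% and 1.88% of summed FPKM in MS 1, 2 and 3, against 12.4%, 12.8% and 13.4% in control 1, 2 and 3 (exact permutation test, two-sided, p = 0.1, the smallest possible). Nuclear copies of mitochondrial genes on chromosome 1, 7 rows, took 0.597% to 1.01% in MS and 4.58% to 4.82% in control, and the sources used here do not say how reads were shared between copies and originals.

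The ribosomal RNAs of the same heavy-strand transcript were higher. The small-subunit rRNA, mt-Rnr1, had 1083, 1430 and 1165 FPKM in MS, against 81.2, 79.7 and 104 FPKM in control. For the large-subunit rRNA, mt-Rnr2, values were 904, 1157 and 957 FPKM in MS, against 349, 405 and 497 FPKM in control. The log2 differences were 3.78 (SE 0.13, adjusted p = 1.1e-05) and 1.28 (SE 0.14, adjusted p = 0.000345). Summed rRNA FPKM over summed message FPKM was 0.236, 0.521 and 0.371 in MS, against 0.0107, 0.0116 and 0.0136 in control. All rRNA rows of the table, nuclear ones included, took 2.27% to 4.94% of summed FPKM in MS and 0.646% to 0.797% in control, in libraries that the labels' protocol describes as selected on oligo(dT). The part of rRNA carry-over in the message values was not tested, and neither was that of tail length under this selection.

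**Figure D3:**
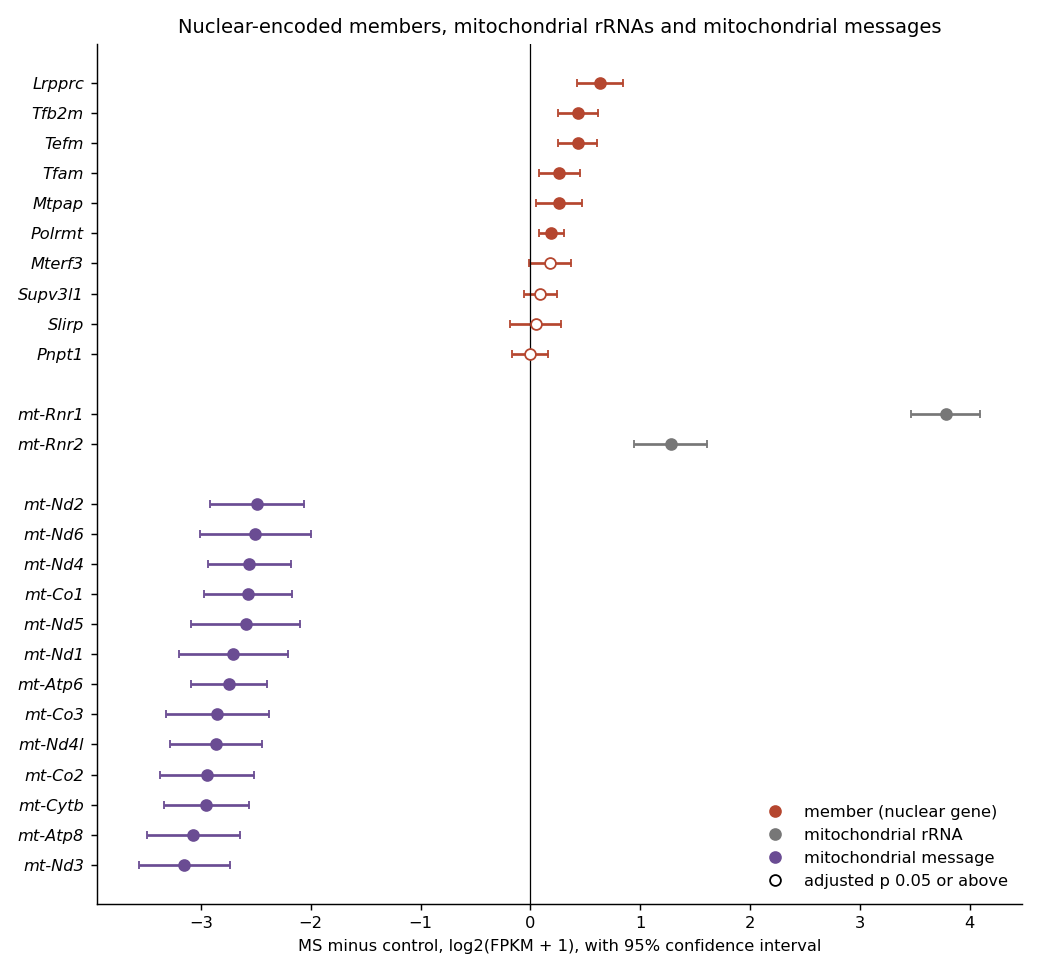
Log2 difference of MS minus control, on log2(FPKM + 1), with its 95% confidence interval (x axis) for the 10 members (red, top), the mitochondrial rRNAs (grey) and the 13 mitochondrial messages (purple, bottom); open circles did not pass the test. Members lie between -0.00 (Pnpt1) and 0.63 (Lrpprc), the rRNAs at 3.78 and 1.28, and the messages between -3.15 and -2.49.

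Tails matter for these messages also because some lack a full stop codon in the genome and gain it from the poly(A) tail that Mtpap adds. The last 24 bases of 5 messages in the GENCODE M21 transcripts are shown for this reason, 5′ to 3′, with capitals for the stop codon or for what the genome encodes of it.
mt-Co3: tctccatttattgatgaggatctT
mt-Nd4: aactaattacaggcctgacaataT
mt-Cytb: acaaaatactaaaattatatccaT
mt-Co1: ccaacctatgtaaaagtaaaaTAA
mt-Nd6: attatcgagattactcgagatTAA
In mt-Co3, mt-Nd4 and mt-Cytb the annotated message ends in a lone T, and the other 10 end, as annotated, in a complete TAA or TAG. Of these 10, mt-Nd1 ends at base 3707 and mt-Nd2 at base 4951, inside transfer RNAs that start at 3706 and 4950. The last base of mt-Atp6, 8607, is also the first of mt-Co3. Cutting at these neighbours would leave those 3 stop codons incomplete too, so the classes below follow the annotation only. The 3 messages annotated with an incomplete stop codon had log2 differences of -2.95 to -2.56 with a median of -2.85. The 10 annotated with a complete one had -3.15 to -2.49 with a median of -2.72. Both classes were lower in MS with overlapping ranges, and the difference between the classes was not tested.

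Other genes of mitochondrial RNA and DNA give the setting of the 10 members. Of 82 such genes in 8 lists, 78 were tested, 40 were higher and 5 lower in MS, with a median log2 difference of 0.24, beside the 30.6% higher and 23.2% lower over all genes. With 3 library sets as a term, which compares MS 1 with control 3 alone, the median was 0.21, beside 0.08 over all tested genes. Values in the next paragraphs are log2 differences on log2(FPKM + 1) unless FPKM is named. Where 3 library sets are named, MS 1 is compared with control 3, 1 library each, with the spread taken from the other sets. Those calls are no replicated check.

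Among 7 tested co-factors of the polymerase, 3 were higher and 1 lower. Top1mt, the mitochondrial topoisomerase that relaxes the DNA behind the polymerase, had 8.11, 7.78 and 7.27 FPKM in MS, against 5.62, 4.05 and 5.94 FPKM in control (0.50, adjusted p = 0.0103). Mrpl12, a ribosomal protein reported to bind the polymerase, rose by 0.24 (adjusted p = 0.0185). Tfb1m, named after its values were seen, had 2.48, 2.36 and 2.62 FPKM in MS, against 2.99, 2.99 and 3.40 FPKM in control (-0.24, adjusted p = 0.0246). Neither Top1mt (0.39, adjusted p = 0.175) nor Mrpl12 (0.14, adjusted p = 0.345) passed with 3 library sets.

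Genes that cut the precursor and finish its transfer RNAs were higher in 4 of 5 cases and lower in 0. Trmt10c, a subunit of mitochondrial RNase P, had 8.09, 9.44 and 8.64 FPKM in MS, against 4.57, 5.07 and 5.17 FPKM in control (0.71, SE 0.07, adjusted p = 0.00023). Hsd17b10, another subunit of that enzyme, was at 45.5, 49.7 and 53.0 FPKM in MS, against 38.2, 39.0 and 37.2 FPKM in control (0.36, adjusted p = 0.00232). Both passed with 3 library sets (Trmt10c 0.56, adjusted p = 0.0191; Hsd17b10 0.29, adjusted p = 0.0444).

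In the list of RNA granule proteins and the FASTK family, which bind and process mitochondrial RNA, 10 of 12 genes were higher and 0 lower. The helicase Ddx28 had 9.82, 11.1 and 9.81 FPKM in MS, against 5.69, 6.45 and 6.77 FPKM in control (0.62, adjusted p = 0.000534). Fastk, the founding member of the family and in mice required for the mt-Nd6 message, had 21.9, 23.6 and 23.5 FPKM in MS, against 17.4, 17.7 and 16.5 FPKM in control (0.40, adjusted p = 0.000667). Both kept their calls with 3 library sets (Ddx28 0.48, adjusted p = 0.0398; Fastk 0.39, adjusted p = 0.0155). Of 6 genes of RNA decay and tail removal, 3 were higher and 0 lower. Rexo2, which clears the short fragments left by degradation, rose by 0.24 (adjusted p = 0.00303), and Pde12, which removes poly(A) tails from mitochondrial RNA, rose by 0.35 (adjusted p = 0.00573). Neither passed with 3 library sets (Rexo2 0.18, adjusted p = 0.121; Pde12 0.33, adjusted p = 0.135).

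Enzymes that modify mitochondrial RNA were higher in 10 and lower in 1 of 19 tested genes. The pseudouridine synthase Trub2 rose by 0.51 (adjusted p = 0.000747) and the tRNA-modifying GTPase Gtpbp3 by 0.35 (adjusted p = 0.0012). Translation factors and activators were higher in 4 of 9 and lower in 0. Gfm2, which helps to recycle the ribosome, had 3.63, 3.38 and 3.61 FPKM in MS, against 2.17, 2.11 and 2.37 FPKM in control (0.50, adjusted p = 0.000795). Taco1, a translational activator of mt-Co1, rose by 0.42 (adjusted p = 0.00731). With 3 library sets Gtpbp3 (0.38, adjusted p = 0.0365) and Gfm2 (0.46, adjusted p = 0.0361) passed, and Trub2 (0.34, adjusted p = 0.0526) and Taco1 (0.30, adjusted p = 0.201) did not.

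Of 8 genes of mitochondrial DNA replication and upkeep, 2 were higher and 1 lower. The helicase Twnk, which unwinds mitochondrial DNA, had 12.8, 13.1 and 12.2 FPKM in MS, against 8.05, 7.93 and 8.13 FPKM in control (0.60, SE 0.05, adjusted p = 8.74e-05). The ligase Lig3 rose by 0.44 (adjusted p = 0.00124). Twnk passed with 3 library sets (0.60, adjusted p = 0.00762) and Lig3 did not (0.27, adjusted p = 0.0713). Nuclear regulators of these genes moved both ways, 4 of 12 higher and 2 lower. Atf5, a factor of the mitochondrial stress response, had 120, 137 and 123 FPKM in MS, against 45.02, 46.1 and 58.2 FPKM in control (1.34, SE 0.10, adjusted p = 7.99e-05). Atf4, of the integrated stress response, had 199.7, 232 and 209.7 FPKM in MS, against 105, 108 and 129 FPKM in control (0.90, SE 0.09, adjusted p = 0.000228). The 2 lower ones, named after their values were seen, were Nrf1 (-0.31, adjusted p = 0.00375) and Gabpa (-0.18, adjusted p = 0.0137), which encode factors for the NRF1 and ETS-type motifs described above. Nrf1 had 2.86, 2.73 and 2.95 FPKM in MS, against 3.71, 3.79 and 3.81 FPKM in control.

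**Figure D4:**
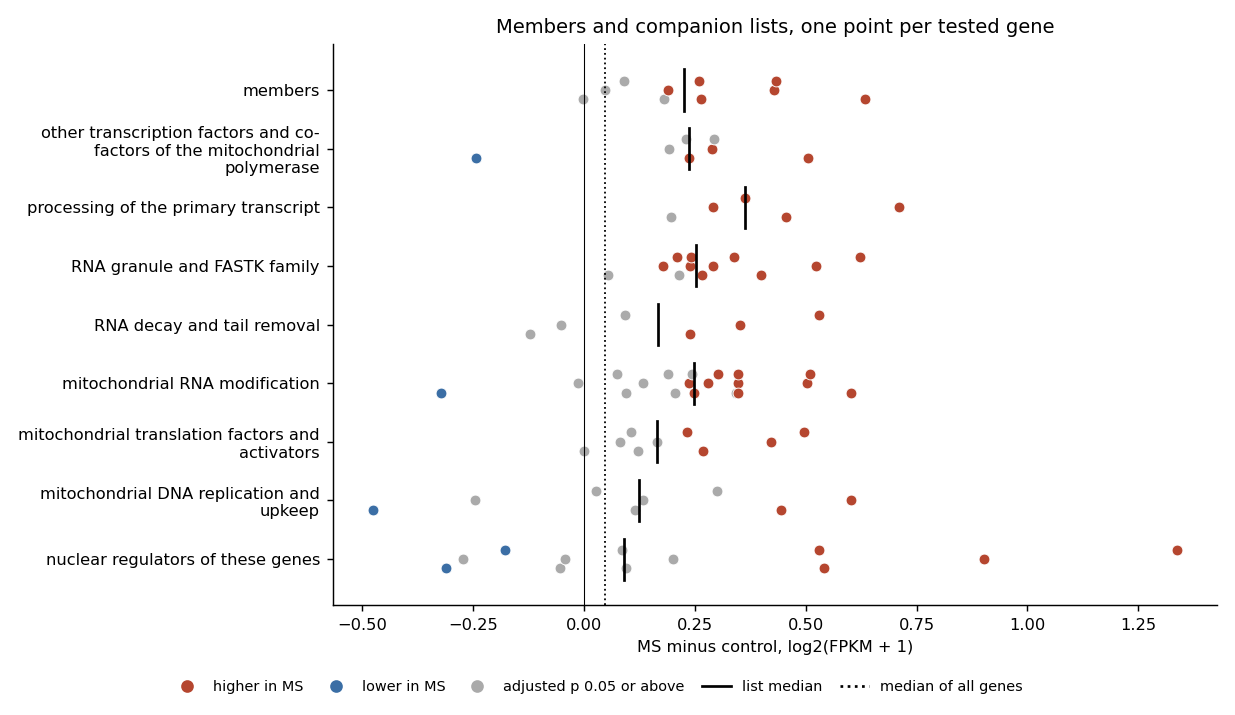
Log2 difference of MS minus control on log2(FPKM + 1) (x axis) for each tested gene of the members (top row) and of the 8 companion lists; red points are called higher, blue called lower and grey not called, short bars are list medians, and the dotted line is the median of all genes (0.05). The medians run from 0.09 for the nuclear regulators to 0.36 for the processing list, and the points farthest to the right are Atf5 and Atf4.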

How the data were processed

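Poly(A) RNA-seq gave expression values for 3 MS and 3 control libraries of C2C12 cells. Per the labels' protocols, RNA was selected on oligo(dT) beads, fragmented, copied with dUTP marking of the second strand and read as pairs of 150 bases. The submitters' processing notes list, with no role or order, edgeR, DESeq2, StringTie 2.1.6, HISAT2 2.2.1, cutadapt 1.9 and the build mm39. The deposited values are FPKM, per the file headers, 1 per gene and library, so counts and depth are unknown; the sources used here do not say how strand or reads with several matches were treated.

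Since FPKM hold no counts, count models were not used. The 12028 genes with a mean of 1 FPKM or more were tested on log2(FPKM + 1), with a pseudocount of 1, with limma 3.58.1 under R 4.3.3 (lmFit and eBayes, trend on, two-sided; Benjamini-Hochberg over all of them, called under 0.05). The ratio of Slirp to Lrpprc and the share of summed FPKM in mitochondrial messages were compared by an exact permutation test (scipy 1.17.1). The fit was also run on simulated data with 200 changed genes and independent noise. That setting has neither the many called genes nor the shared deviations of these libraries, so it does not show how far the calls here hold. The members and the companion lists were chosen with earlier results of these data known. Genes were named by a rule: all members, mt-Nd1, mt-Cytb, mt-Co1, mt-Nd6 and both mitochondrial rRNAs, and from each companion list the 2 called genes with the smallest p. Symbols came from an ID table that matched 31077 of 32815 IDs, with Prorp found through a synonym. Sequences are from RefSeq (GRCm38.p6) and GENCODE M21. Promoter and member coordinates are of different builds and were not converted. Alternatives were another pseudocount, filter, scaling, library weights, library sets, a replicate block and leaving out libraries; the model with 3 library sets and the scaling without pseudogene copies were chosen after seeing the data.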

Additional observations from a re-analysis of the deposited data

How the results depend on the processing

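All 13 mitochondrial messages were lower in MS under all 19 alternatives. Lrpprc kept its call under all 19, and Tfb2m and Tefm under 18, the exception being 3 library sets as a term. With that term the calls over all genes came to 3166 (1845 higher and 1321 lower), against 6470 as reported, those among the members to 1 and those among the companion genes to 12, against 45 as reported; its construction leaves MS 1 against control 3 with the spread within sets. Rescaling to the nuclear total without the pseudogene copies left 3 members called, and a minimum mean of 5 FPKM left 29 companion genes called, of the 41 then tested. Leaving out 1 library at a time gave 4 to 7 members, 34 to 42 companion genes and 5373 to 6487 genes over all. Polrmt lost its call under 3 alternatives, Tfam under 7 and Mtpap under 11, and Mterf3 gained one under 2 (library weights, adjusted p = 0.0436, and without control 3). Signs turned only in genes that did not pass: Slirp was at -0.013 with the scaling without copies, at -0.015 without MS 1 and control 3, and between -0.022 and 0.136 with 1 library left out. Pnpt1 was at 0.052 with library weights, at 0.10 without MS 1 and control 3, and between -0.034 and 0.061 with 1 library left out. Supv3l1 was at -0.061 with 3 library sets. The causes were not tested.

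Deviations from the group means correlated at -0.334, 0.245 and -0.372 for replicate numbers 1, 2 and 3, and at 0.456 for MS 1 with control 3. Deviations within a group are tied to each other, so that 1 pair weighs on all these values. They cannot show whether replicate numbers pair the libraries. With the replicate number as a block, 5890 genes, 5 members (all but Mtpap, adjusted p = 0.0996) and 42 companion genes were called. The difference in the mean Slirp to Lrpprc ratio was -0.11 to -0.06, and that in the message share -11.1 to -10.5 percentage points, over the libraries left out. Depth is unknown and sets no stated limit here, and 3 libraries a group limit the exact tests to p = 0.1.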
